A study of Rattus norvegicus with 138 samples.

Results

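The orexin, corticotropin-releasing hormone (CRH) and thyrotropin-releasing hormone (TRH) systems are represented here by 9 genes of the 32883 in each count table. The genes were taken by symbol: Hcrt, Hcrtr1 and Hcrtr2 for orexin, Crh, Crhr1, Crhr2 and Crhbp for CRH, and Trh and Trhr for TRH. Each symbol matched 1 row in every table. RNA was sequenced from bilateral micropunches of 3 brainstem regions of female rats: the nucleus of the solitary tract (NTS), the caudal ventrolateral medulla (CVLM) and the rostral ventrolateral medulla (RVLM). The inbred spontaneously hypertensive rat (SHR/NHsd) was set beside the normotensive Wistar-Kyoto rat (WKY/NHsd), with no drug treatment in either strain. The 46 rats were taken at 5 ages: 5 WKY rats and 5 SHRs at 8 wk, 4 WKY rats and 5 SHRs at 10 wk, and 3 WKY rats and 6 SHRs at each of 12, 16 and 24 wk. All 3 regions of each rat were sequenced, which makes 46 libraries a region. A punch holds all the cells of its site, and strain here stands for every genetic difference between these inbred lines.

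Library totals ran from 5904581 to 17889417 counts. Column names end in 1 or 2, a number that the sources used here do not explain. The number 2 stands on every 10 wk library, on those of 3 of the 5 WKY rats at 8 wk and on those of 1 SHR each at 12 and 24 wk. Libraries named with a 2 held a median of 14677507 counts against 9331634.5 for the others. The age of 10 wk and the number 2 therefore cannot be told apart. Of the CVLM libraries at 8 wk, 1 WKY and 1 SHR library carry a title of 8 wk beside an age label of 10 wk and were placed by title. Rats are numbered here within their group by the replicate number of the library titles. For WKY rats at 8 wk this differs from the number of the animal in the column name.

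Orexin is a peptide made by neurons of the lateral hypothalamus from a precursor encoded by Hcrt. It acts through the G protein-coupled receptors encoded by Hcrtr1 and Hcrtr2, promotes wakefulness and raises sympathetic outflow when applied to the medulla. CRH, the peptide that starts the pituitary-adrenal stress response, also serves as a transmitter in neurons outside the hypothalamus. Its receptors are encoded by Crhr1 and Crhr2, and the protein encoded by Crhbp binds CRH and limits its access to them. TRH drives the release of thyrotropin from the pituitary and is also stored in serotonergic neurons of the medulla, and Trhr encodes a receptor for it. Axons carry peptides from distant cells, so the RNA in a punch reports chiefly on local cell bodies.

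The 3 genes on which the strain comparison turned most are shown with the 250 bases before their transcript start in the reference rat genome. These are RefSeq sequences of the build GRCr8, which come from neither SHR nor WKY, and 7 of the 9 genes had an entry. Capitals mark matches, on either strand, to any of 6 motifs searched. These were the TATA box TATAAA, the CCAAT box CCAAT, the GC box GGGCGG, the cAMP response element TGACGTCA, the E box CACGTG, and the nuclear receptor site AGGTCA.
Hcrt, chr10:86191525-86191774, minus strand: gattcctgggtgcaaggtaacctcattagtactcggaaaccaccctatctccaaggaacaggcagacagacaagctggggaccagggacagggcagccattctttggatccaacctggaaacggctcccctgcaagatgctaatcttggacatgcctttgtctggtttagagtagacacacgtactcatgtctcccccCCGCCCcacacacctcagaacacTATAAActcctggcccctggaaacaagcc
Hcrtr1, chr5:147770851-147771100, minus strand: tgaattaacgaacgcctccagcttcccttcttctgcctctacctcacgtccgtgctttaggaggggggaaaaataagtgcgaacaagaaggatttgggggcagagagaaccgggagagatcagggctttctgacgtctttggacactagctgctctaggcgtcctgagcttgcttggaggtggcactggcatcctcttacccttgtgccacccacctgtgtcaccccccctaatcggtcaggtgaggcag
Crhr1, chr10:89539959-89540208, plus strand: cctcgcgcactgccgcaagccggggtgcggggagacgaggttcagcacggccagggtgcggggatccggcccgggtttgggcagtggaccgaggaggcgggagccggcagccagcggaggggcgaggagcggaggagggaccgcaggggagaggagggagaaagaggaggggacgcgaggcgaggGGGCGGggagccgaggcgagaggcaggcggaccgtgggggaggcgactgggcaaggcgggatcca
The Hcrt window holds TATAAA with its first base 29 bases before the start, and a GGGCGG match on the other strand 52 bases before it. In Crhr1 a GGGCGG match begins 65 bases before the start, and the Hcrtr1 window holds none of the 6. Of 33469 such windows in the reference table, 12.9% hold TATAAA and 30.5% hold GGGCGG, so that these matches describe the windows and name no factor.

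The peptide and receptor genes were distributed unequally over the 3 regions. Levels are given as CPM, counts scaled to a library total of 1000000. They are not corrected for transcript length and are not compared between genes. In a fit over the libraries of all regions with the rat as a block, 24 of the 27 comparisons of a gene between regions passed (edgeR's quasi-likelihood test, adjusted p under 0.05). Over all 14043 genes and the same 3 pairs of regions 64.2% passed (72.7% for NTS against RVLM, 65.9% for NTS against CVLM and 54% for CVLM against RVLM), so that unequal levels were the rule in these libraries.

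Hcrt RNA was measured in the NTS and hardly elsewhere. Its mean over the groups was 4.54 CPM in the NTS, against 0.173 CPM for the CVLM and 0.0503 CPM for the RVLM. No CVLM library held more than 13 counts and no RVLM library more than 3, and 20 and 33 of 46 libraries there held none, which allows up to 3 counts in each. The fitted NTS level was 18.2-fold that of the CVLM (log2 4.19 ± 0.26 SE, adjusted p = 5.84e-24). Hcrtr1 followed the same order of regions, at 14.9, 10.1 and 4.63 CPM in the NTS, CVLM and RVLM, and each step passed (adjusted p = 4.59e-06 and 1.83e-20). Hcrtr2 ran the other way, at 5.43, 7.61 and 8.64 CPM (adjusted p = 1.05e-11 for NTS against CVLM and 0.00669 for CVLM against RVLM).

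Crh was highest in the CVLM, at 15.7 CPM against 2.68 in the NTS and 1.78 in the RVLM. The CVLM stood 5.96-fold above the NTS and 8.46-fold above the RVLM (adjusted p = 8.37e-25 and 4.40e-28). Crhr1, the main CRH receptor of brain, was likewise highest in the CVLM, with 10.5 CPM in the CVLM, 5.08 in the RVLM and 4.74 in the NTS. Crhr2 was low throughout and highest in the NTS, at 2.21 CPM against 1.54 in the RVLM and 0.806 in the CVLM. Crhbp averaged 23.8 CPM in the CVLM and 29.5 in the RVLM, which did not differ beyond their spread (adjusted p = 0.103). Its NTS level of 2.25 CPM was 10.4-fold below that of the CVLM and 12.9-fold below that of the RVLM.

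For Trh the averages of the NTS, CVLM and RVLM were 6.23, 15.9 and 1.74 CPM. The first 2 of these were not told apart (log2 -0.42 ± 0.26 SE, adjusted p = 0.154). The median of the CVLM libraries was 7 CPM, below their mean. Trhr was found at 26.0, 36.2 and 32.5 CPM in the NTS, CVLM and RVLM. The CVLM and RVLM did not differ beyond their spread (adjusted p = 0.167), while the NTS lay below both, at 1.51-fold and 1.41-fold (adjusted p = 4.09e-14 and 2.62e-11).

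The strain comparison asked which of these genes differed between SHRs and WKY rats at each age and over the 5 ages. A gene entered it in a region where its largest rlog value was at least 3.5: all 9 genes in the NTS, 7 in the CVLM (not Hcrt and Crhr2) and 8 in the RVLM (not Hcrt). Averaged over the ages, 7 of the 24 values passed, against 11.4% of all genes tested (NTS 11.2%, CVLM 12.3%, RVLM 10.8%). Lower in SHRs were Hcrt in the NTS, Hcrtr1 in the NTS and CVLM, and Crhbp in the CVLM. Higher in SHRs were Crhr1 in the NTS and RVLM, and Trhr in the RVLM. The same 7 values passed when no filter on low counts was used. At single ages 11 of 120 values passed, 7 of them lower and 4 higher in SHRs, against 3.87% of all genes tested (NTS 3.5%, CVLM 4.57%, RVLM 3.53%). By age, from 8 to 24 wk, 5.79%, 4.44%, 3.1%, 1.73% and 2.46% of all genes passed in the NTS. In the CVLM 7.64%, 3.18%, 2.62%, 2.27% and 7.13% passed, and in the RVLM 9.78%, 2.3%, 1.7%, 1.65% and 2.24%. In the NTS 8 of the 9 values had a negative sign, with a median log2 fold change of -0.36 against 0.0097 over all genes tested there. The corresponding medians were -0.23 in the CVLM and -0.016 in the RVLM, against -0.0030 and 0.0088.

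**Figure D1:**
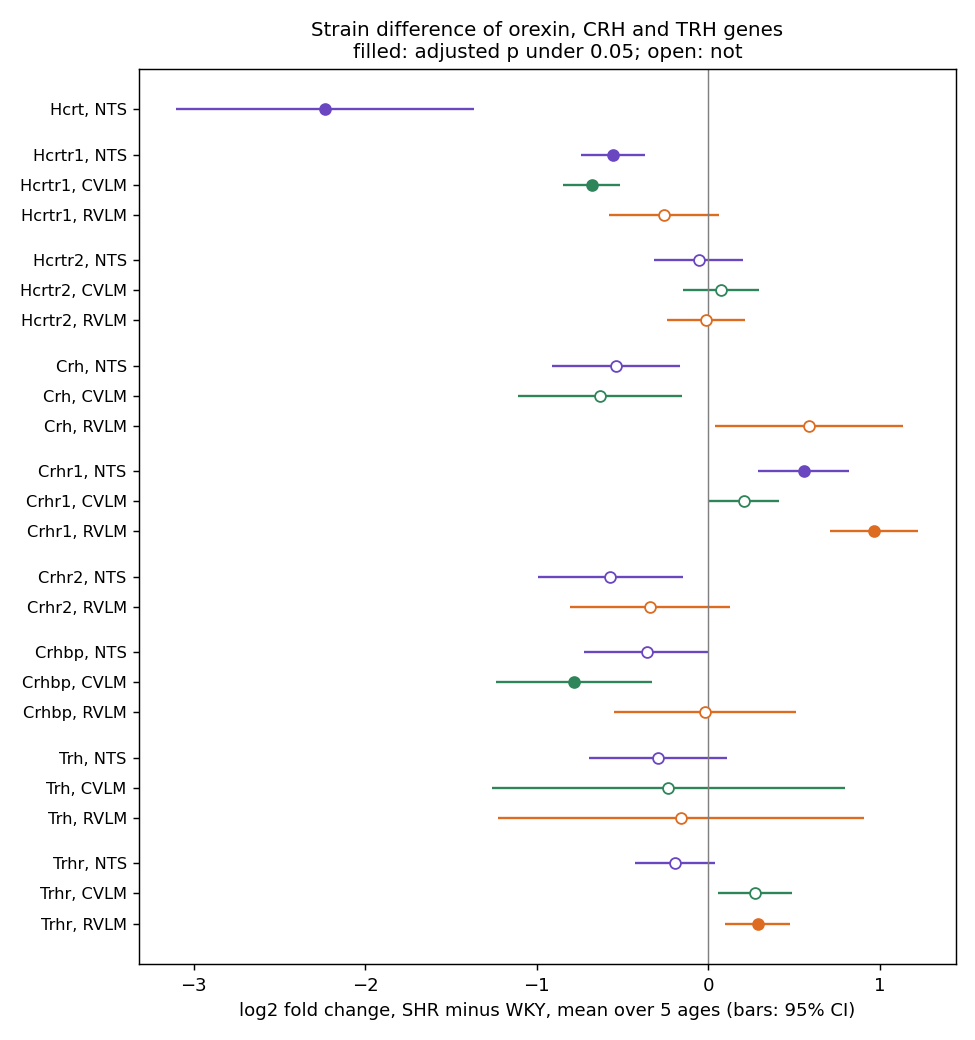
Strain difference of each gene in each region where it was tested, as the log2 fold change of SHRs over WKY rats averaged over 5 ages (horizontal axis, points) with its 95% confidence interval (bars). Filled points passed at an adjusted p under 0.05, which 4 did on the lower side and 3 on the higher side of 0, and colours mark the region.

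Hcrt, the orexin precursor, was lower in the NTS of SHRs, with the largest log2 fold change of the 24 values tested. WKY rats had 0.855, 14, 1.67, 0 and 0.559 CPM at 8 wk, and SHRs 0.186, 0.359, 1.62, 0.165 and 0.459. At 10 wk the WKY values were 2.13, 1.91, 5.24 and 9.41 CPM and the SHR values 0.953, 0.148, 0.581, 1.77 and 1.81. At 12 wk the 3 WKY rats had 21.6, 24.1 and 13.1 CPM, while the 6 SHRs ranged from 0 to 3.83 with a median of 1.22. The strains did not overlap at 10 and 12 wk, and at 8 wk 1 WKY rat stood far above all others. At 16 wk the WKY values were 4.13, 2.69 and 10.4 CPM and the SHRs ran from 0.370 to 3.14 with a median of 1.48. At 24 wk WKY rats had 0.889, 8.97 and 4.82 CPM and SHRs 0 to 7.41 with a median of 1.13. The strains overlapped at both later ages, and over all ages 27 of 28 SHR libraries lay below the WKY median of 4.48 CPM.

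Averaged over the ages, Hcrt in the NTS stood at 1.41 CPM in SHRs and 7.67 CPM in WKY rats (log2 -2.23 ± 0.43 SE, 28 SHRs and 18 WKY rats, adjusted p = 1.76e-04). At 12 wk the log2 fold change was -3.63 ± 0.92 (SE, adjusted p = 0.0158, where 3.1% of all genes passed), and at the other ages it lay between -2.41 and -1.07 with no call. The 12 wk call was lost without WKY rat 1 (adjusted p = 0.0515) or WKY rat 2 (adjusted p = 0.0758), and with the replicate number as a block (0.0766). In a bulk punch fewer cells of a type and less RNA per cell cannot be told apart.

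The genes whose level in the NTS moved most like Hcrt from rat to rat include genes of motile cilia. Likeness was measured as Pearson's r of log2(CPM + 0.5), taken as deviations from the group means over the 46 NTS libraries, which share depth and dissection. Spaca9 came nearest at 0.86, then Zmynd10 and Fam183a at 0.84 each. Over the ages the strain test passed for Fam183a (log2 -0.54 ± 0.18 SE, adjusted p = 0.0414), but not for Spaca9 (-0.37 ± 0.30 SE, adjusted p = 0.576) or Zmynd10 (-0.36 ± 0.23 SE, adjusted p = 0.403). At 12 wk Fam183a passed (-1.94, adjusted p = 0.00127), and Spaca9 (-1.69, adjusted p = 0.202) and Zmynd10 (-1.63, adjusted p = 0.0657) did not. Zmynd10 encodes a factor needed to assemble the dynein arms of motile cilia, which in brain sit on the ependymal cells lining the ventricles. A list of 8 markers of ciliated ependyma was added after these values were seen, and 7 of the 8 were found and tested. Of the 7, Ccdc153, Dynlrb2 and Enkur were lower in SHRs in the NTS and none was higher, with a median log2 fold change of -0.56. Over all genes tested there 11.2% passed. Ccdc153 averaged 2.07 CPM in SHRs and 8.21 in WKY rats (log2 -1.77 ± 0.31 SE, adjusted p = 4.08e-05) and stood 7th of 13792 genes in its likeness to Hcrt, at 0.82. At 12 wk its log2 fold change was -3.20 ± 0.68 (SE, adjusted p = 0.00234). The summed level of the list ran from 228 to 673 CPM in WKY rats and from 285 to 705 in SHRs, most of it from Tppp3 (428 and 416 CPM), which is not restricted to ependyma.

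Markers of the choroid plexus, the ventricular tissue that makes cerebrospinal fluid, also stood apart in some NTS libraries. Of 6 tested in the NTS, Ttr and Folr1 were lower in SHRs, while of 3 tested in the CVLM, Kl and Sostdc1 were higher. Over all genes 11.2% passed this test in the NTS and 12.3% in the CVLM. The summed level of all 7 markers ran from 1.96 to 4885 CPM in WKY rats and from 1.44 to 8.74 in SHRs. Ttr, the most abundant of them, lay between 93.8 and 4700 CPM in 5 WKY libraries (8 wk rats 2 and 5, 10 wk rat 4, 12 wk rats 2 and 3), and at no more than 6.54 CPM in the other libraries. Hcrt in these 5 libraries was 14, 0.559, 9.41, 24.1 and 13.1 CPM, so that it was low in 1 of them, and WKY rat 1 at 12 wk had 21.6 CPM of Hcrt with 0.327 CPM of Ttr. Without the 5 libraries the Hcrt difference over the ages was -1.78 ± 0.45 (log2, SE, adjusted p = 0.00734), and that at 12 wk was -3.85 ± 1.06 (adjusted p = 0.0865), with 1 WKY rat left. The value at 8 wk went from -2.41 to -0.51 (adjusted p = 0.819) and that at 10 wk from -2.15 to -1.57 (adjusted p = 0.395). The part of ependymal and plexus tissue in the Hcrt difference was not tested. None of 12 hypothalamic markers reached the filter in any region: in the NTS Pmch, which marks the neurons beside the orexin cells, stayed at or under 13.1 counts, Nkx2-1 at or under 2 and Six6 at or under 1.

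Hcrtr1, the orexin receptor with a preference for orexin A, was lower in SHRs in the NTS and CVLM. In the CVLM the WKY values were 18.9, 15.2, 9.84, 10.3 and 10.2 CPM at 8 wk against 7.45, 9, 9.48, 9.99 and 8.33 in SHRs. At 10 wk WKY rats had 13.7, 12.8, 11.9 and 7.24 CPM and SHRs 6.20, 6.46, 6.47, 6.09 and 6.71. The strains overlapped at 8 wk through 1 SHR library only and did not overlap at 10 wk. At 12 wk the WKY values of 12.3, 14.6 and 8.23 CPM stood beside SHR values of 4.22 to 9.06 with a median of 7.45. At 16 wk 10.6, 13.3 and 13.0 CPM in WKY rats stood beside 7.95 to 11.2 in SHRs with a median of 10.1. At 24 wk WKY rats had 15.5, 11.8 and 12.3 CPM and SHRs 6.05 to 9.14 with a median of 7.55, again with no overlap. All 28 SHR libraries of the CVLM lay below the WKY median of 12.3 CPM, and 12 of 18 WKY libraries lay above the highest SHR value.

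Over the ages Hcrtr1 averaged 7.98 CPM in SHRs and 12.3 in WKY rats in the CVLM (log2 -0.68 ± 0.082 SE, 1.60-fold lower, adjusted p = 1.61e-08). This held in each of the 28 fits that left out 1 rat (adjusted p at most 1.55e-07). At single ages the call was made at 8, 10, 12 and 24 wk, with log2 fold changes of -0.59, -0.85, -0.76 and -0.86. The 8 wk call was lost without WKY rat 1 (adjusted p = 0.0921), SHR rat 1 (0.104), SHR rat 2 (0.0602) or SHR rat 5 (0.0517), and without the 2 libraries of conflicting age labels (0.0550). It was also lost with no filter on low counts (0.0531) and with each age fitted on its own (0.151). The 12 wk call was lost without WKY rat 1 (adjusted p = 0.120) or 2 (0.119), with each age on its own (0.344) and with the replicate number as a block (0.260). The 24 wk call was lost without WKY rat 1 (0.0712).

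In the NTS Hcrtr1 at 10 wk was 17.3, 11.9, 13.6 and 13.8 CPM in WKY rats and 10.1, 7.39, 10.6, 6.35 and 9.13 in SHRs. At 24 wk it was 25.4, 19.4 and 16.9 CPM in WKY rats and 10.4 to 14.5 in SHRs, with a median of 11.5. Neither age showed an overlap, and both passed (log2 -0.73 ± 0.20 and -0.82 ± 0.21 SE, adjusted p = 0.0259 and 0.0178). At 8, 12 and 16 wk the log2 values were -0.50, -0.27 and -0.45, with no call (adjusted p = 0.108, 0.713 and 0.698). The strains did not overlap at 16 wk either. The 10 wk call was lost without WKY rat 1, SHR rat 2 or SHR rat 4 (adjusted p = 0.146, 0.0931 and 0.0672) and with each age fitted on its own (0.0612), and the 24 wk call without WKY rat 1 (0.378). Over the ages the NTS level was 12.1 CPM in SHRs and 17.7 in WKY rats (log2 -0.55 ± 0.092 SE, 1.47-fold lower, adjusted p = 1.46e-05), with 25 of 28 SHR libraries below the WKY median. In the RVLM the averages were 4.24 and 5.02 CPM (log2 -0.26 ± 0.16 SE, 95% CI -0.58 to 0.061, adjusted p = 0.369). The RVLM difference was not shown to depart from those of the NTS and CVLM (adjusted p = 0.501 and 0.780 for the difference between regions).

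Hcrtr1 was lower on average in libraries named with a 2 than in the others of their group in the NTS and CVLM. In the RVLM the means of WKY rats at 8 wk were alike (3.52 and 3.54 CPM). There the 1 SHR library named with a 2 was lower than the mean of the others at 12 wk (3.74 against 4.65 CPM) and at 24 wk (2.91 against 3.19 CPM). Among the WKY rats at 8 wk the 2 rats of number 1 averaged 24.0 CPM in the NTS and 17.1 in the CVLM, and the 3 of number 2 averaged 14.1 and 10.1. With the number as a term in the model the strain differences over the ages were -0.57 in the NTS and -0.70 in the CVLM (log2, adjusted p = 1.37e-06 and 2.68e-10).

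**Figure D2:**
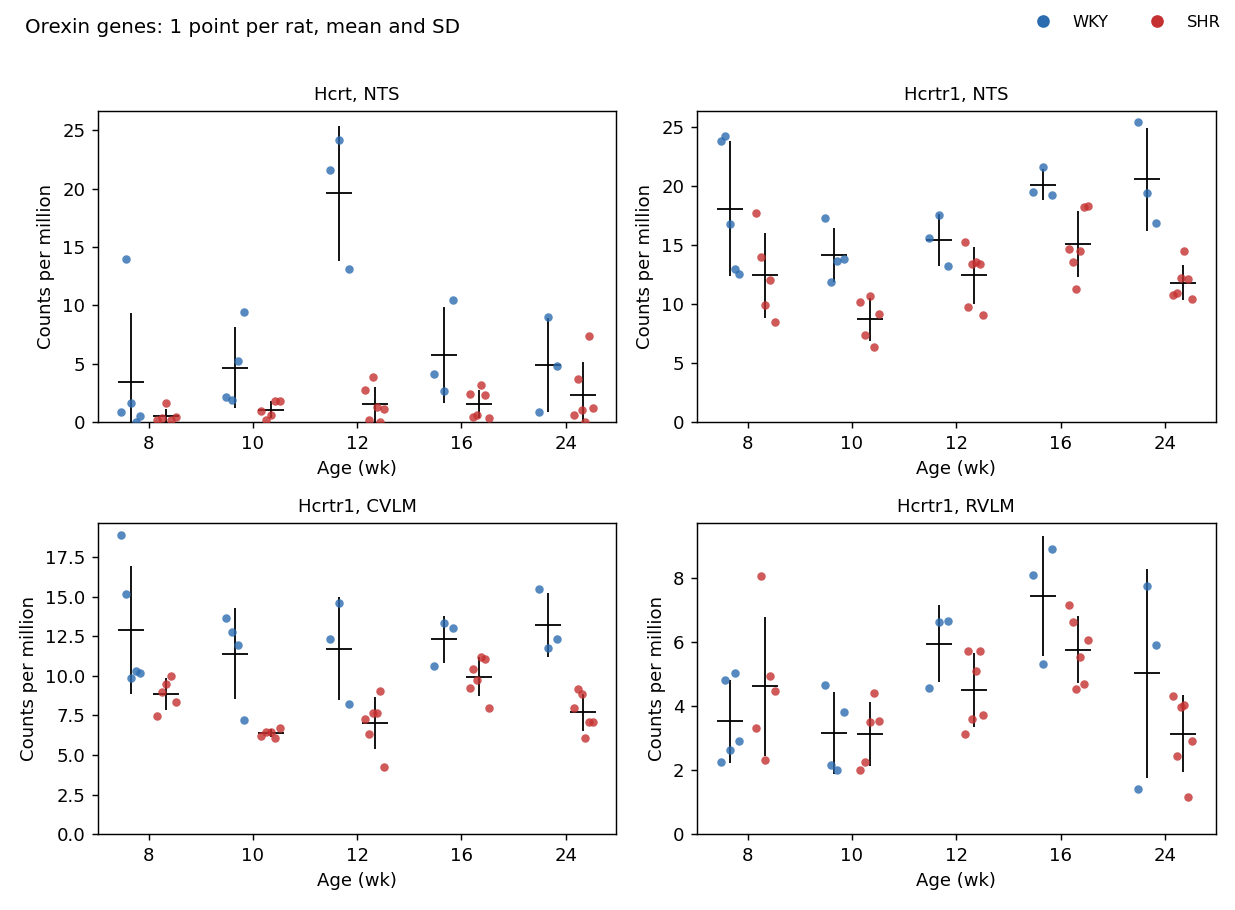
Hcrt in the NTS and Hcrtr1 in the NTS, CVLM and RVLM, in CPM (vertical axes), by age in wk and strain, with 1 point per rat and a black cross for the mean ± SD. The lower bar stops at the axis where the SD exceeds the mean. For Hcrt the WKY group mean lies above that of SHRs at every age, while points overlap at 8, 16 and 24 wk. WKY rats at 12 wk lie between 13.1 and 24.1 CPM, and the CVLM panel of Hcrtr1 shows no overlap at 10 and 24 wk.

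Hcrtr2, which encodes the receptor that binds orexin A and orexin B about equally, passed the strain test in no region. Its averages in SHRs and WKY rats were 5.37 and 5.49 CPM in the NTS, 7.93 and 7.29 in the CVLM, and 8.72 and 8.56 in the RVLM. The log2 fold changes were -0.057, 0.072 and -0.013, with 95% CIs of -0.31 to 0.20, -0.15 to 0.29 and -0.24 to 0.21. None of its values at single ages passed.

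Among the CRH genes the receptor gene Crhr1 was higher in SHRs, most clearly in the RVLM, the region whose neurons drive sympathetic tone. At 8 wk the RVLM values were 2.79, 3.25, 1.16, 3.70 and 2.68 CPM in WKY rats and 5.89, 4.54, 2.52, 7.16 and 6.48 in SHRs. At 10 wk they were 2.76, 2.84, 2.21 and 1.75 CPM in WKY rats and 7.20, 6.15, 6.83, 4.35 and 5.57 in SHRs. At 8 wk 1 SHR lay among the WKY rats, and at 10 wk the strains were apart. At 12 wk WKY rats had 5.50, 4.08 and 3.80 CPM and SHRs 3.88 to 9.52 with a median of 7.53. At 16 wk WKY rats had 6.36, 3.32 and 3.37 CPM and SHRs 4.59 to 12.0 with a median of 7.02. At 24 wk WKY rats had 3.18, 3.72 and 2.49 CPM and SHRs 5.89 to 9.65 with a median of 7.83, with no overlap. All 18 WKY libraries of the RVLM lay below the SHR median of 6.76 CPM, and 16 of 28 SHR libraries lay above every WKY library.

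Over the ages Crhr1 in the RVLM averaged 6.75 CPM in SHRs and 3.41 in WKY rats (log2 0.97 ± 0.13 SE, 1.95-fold higher, adjusted p = 1.48e-07). Each of the 28 fits that left out 1 rat kept this call (adjusted p at most 9.14e-07). The SHRs of 12, 16 and 24 wk were not among the rats left out. At single ages it passed at 8, 10 and 24 wk, with log2 fold changes of 0.84, 1.3 and 1.24 (adjusted p = 0.0333, 0.00209 and 0.0140). The 8 wk call was lost without WKY rat 3 (adjusted p = 0.139) or SHR rats 1, 4 or 5 (0.0560, 0.0795 and 0.0828). It was also lost with the number in the library name as a term (0.156) and without the number-2 libraries of ages other than 10 wk, which are 3 WKY libraries at 8 wk and 1 SHR library each at 12 and 24 wk (0.506). No filter on low counts (0.0557) and each age fitted on its own (0.180) ended it too. The 24 wk call was lost without WKY rat 1 (0.0703) or 3 (0.168).

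In the NTS Crhr1 averaged 5.57 CPM in SHRs and 3.90 in WKY rats (log2 0.56 ± 0.13 SE, adjusted p = 0.00226), and 15 of 18 WKY libraries lay below the SHR median. The strains were farthest apart there at 24 wk, at 2.17, 2.35 and 2.31 CPM in WKY rats against 3.87 to 7.47 in SHRs with a median of 4.97 (log2 1.26 ± 0.32 SE, adjusted p = 0.0194). That call was lost without WKY rat 1 (adjusted p = 0.135) or 3 (0.0904), and with the replicate number as a block (0.0657). In the CVLM, where its level was highest, Crhr1 averaged 11.2 CPM in SHRs and 9.76 in WKY rats (log2 0.21 ± 0.10 SE, 95% CI 0.00067 to 0.41, adjusted p = 0.222). The strain difference in the CVLM was smaller than that in the RVLM by 0.75 ± 0.15 (log2, SE, adjusted p = 0.00262, where 0.32% of all genes passed). That of the NTS was not shown to depart from either (adjusted p = 0.563 and 0.227).

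**Figure D3:**
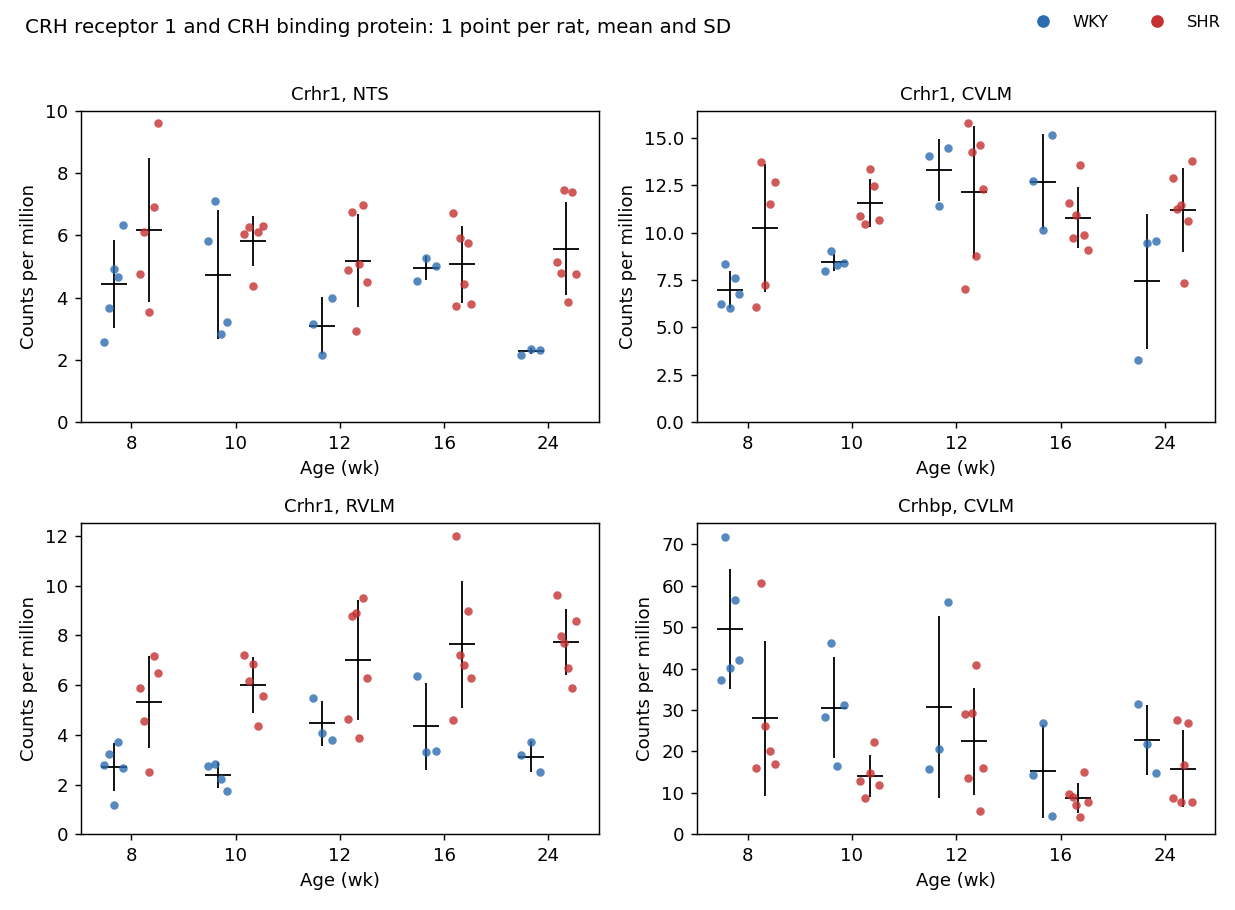
Crhr1 in the NTS, CVLM and RVLM and Crhbp in the CVLM, in CPM (vertical axes), by age in wk and strain, with 1 point per rat and a black cross for the mean ± SD. In the RVLM panel the WKY rats at 10 wk lie between 1.75 and 2.84 CPM, all below the SHRs at 4.35 to 7.20.

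Crhbp, which encodes the CRH binding protein, was lower in SHRs in the CVLM. WKY rats had 37.2, 71.8, 40.1, 56.5 and 42.2 CPM at 8 wk and SHRs 16.0, 60.8, 26.1, 20.2 and 16.9. At 10 wk the values were 28.3, 46.1, 16.5 and 31.3 CPM in WKY rats and 12.8, 8.66, 14.8, 22.2 and 12.0 in SHRs. The strains overlapped at both ages through single libraries. At 12 wk WKY rats had 15.8, 20.5 and 56.1 CPM and SHRs 5.55 to 40.9 with a median of 22.6. At 16 wk WKY rats had 14.3, 26.9 and 4.52 CPM and SHRs 4.06 to 15.0 with a median of 8.36. At 24 wk WKY rats had 31.6, 21.8 and 14.8 CPM and SHRs 7.70 to 27.5 with a median of 12.7. No single age passed, and over all ages 26 of 28 SHR libraries lay below the WKY median of 29.8 CPM.

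Averaged over the ages, Crhbp in the CVLM stood at 17.8 CPM in SHRs and 29.8 in WKY rats (log2 -0.78 ± 0.22 SE, 1.72-fold lower, adjusted p = 0.0145). The call was lost without WKY rat 3 at 12 wk (log2 -0.63, adjusted p = 0.0621) or WKY rat 2 at 16 wk (log2 -0.65, adjusted p = 0.0615). In the NTS the averages were 2 CPM in SHRs and 2.51 in WKY rats (log2 -0.36 ± 0.18 SE, adjusted p = 0.246), and in the RVLM 27.8 and 31.2 CPM (log2 -0.019 ± 0.26 SE, adjusted p = 0.981). The CVLM and RVLM differences were not shown to differ from each other (adjusted p = 0.597).

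The peptide gene Crh did not pass in any region. Its SHR and WKY averages were 2.15 and 3.20 CPM in the NTS (log2 -0.54 ± 0.18 SE, adjusted p = 0.0506) and 12.0 and 19.4 CPM in the CVLM (log2 -0.63 ± 0.24 SE, adjusted p = 0.0790). In the RVLM they were 2.09 and 1.47 CPM (log2 0.59 ± 0.27 SE, adjusted p = 0.195). In the NTS the value lay close to the threshold: DESeq2 in place of edgeR gave an adjusted p of 0.0337, a model of strain and age without interaction 0.0369, and 10 of the 28 fits without 1 rat passed. In the CVLM at 8 wk WKY rats had 18.7, 64.0, 27.3, 24.1 and 35.9 CPM and SHRs 4.17, 14.6, 14, 18.1 and 13.2, with no overlap. Its CVLM call was likewise reached without WKY rat 3 at 10 wk (adjusted p = 0.0475) or WKY rat 2 at 12 wk (0.0445). The RVLM value had the opposite sign, and it was not shown to differ from that of the CVLM or NTS (adjusted p = 0.141 and 0.0792).

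Crhr2, the receptor that favours the urocortins, averaged 1.77 CPM in SHRs and 2.66 in WKY rats in the NTS (log2 -0.57 ± 0.21 SE, adjusted p = 0.0732). In the RVLM it averaged 1.33 and 1.76 CPM (log2 -0.34 ± 0.23 SE, adjusted p = 0.431). The NTS value passed without WKY rat 1 at 8 wk (adjusted p = 0.0497) or WKY rat 1 at 12 wk (0.0487). In the CVLM Crhr2 held 2 to 26 counts per library and was not tested. The other CRH family ligands were scarce: of Ucn, Ucn2 and Ucn3, Ucn alone was tested, in the NTS (1.04 and 1.64 CPM in SHRs and WKY rats, adjusted p = 0.349) and RVLM (2.51 and 2.25 CPM, adjusted p = 0.617).

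Trhr, a TRH receptor gene, was higher in SHRs in the RVLM. At 8 wk WKY rats had 25.6, 21.8, 24.4, 35.2 and 36.4 CPM and SHRs 36.3, 29.6, 33.1, 23.2 and 38.1. At 10 wk WKY rats had 52.0, 36.9, 38.5 and 33.3 CPM and SHRs 44.3, 44.1, 66.8, 40.5 and 46.7. Both strains overlapped at these ages. At 12 wk 21.5, 27.7 and 23.0 CPM in WKY rats stood beside 23.1 to 43.4 in SHRs with a median of 34.2. At 16 wk 17.8, 29.5 and 21.5 CPM stood beside 23.7 to 34.4 with a median of 27.8, and at 24 wk 30.8, 25.1 and 28.6 CPM beside 25.9 to 52.9 with a median of 38.6. The strains overlapped at every age, and 22 of 28 SHR libraries lay above the WKY median of 28.2 CPM.

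Over the ages Trhr in the RVLM averaged 36.2 CPM in SHRs and 28.8 in WKY rats (log2 0.29 ± 0.094 SE, 1.22-fold higher, adjusted p = 0.0375). It stood near the threshold, and 15 of the 28 fits without 1 rat lost it, with adjusted p between 0.0506 and 0.0895: WKY rats 1 and 2 of 8 wk, rats 2, 3 and 4 of 10 wk, rats 1 and 3 of both 12 and 16 wk, rats 2 and 3 of 24 wk, and SHRs 1, 3 and 5 of 8 wk and 3 of 10 wk. In the CVLM the averages were 40.1 and 32.4 CPM (log2 0.27 ± 0.11 SE, adjusted p = 0.0937), and in the NTS 24.4 and 27.6 CPM (log2 -0.19 ± 0.12 SE, adjusted p = 0.368). With the library number as a term the CVLM value passed (log2 0.30, adjusted p = 0.0336). The strain difference in the NTS was lower than that in the CVLM by 0.51 ± 0.12 (log2, SE, adjusted p = 0.0271, where 0.449% of all genes passed) and lower than that in the RVLM by 0.52 ± 0.12 (adjusted p = 0.00756, where 1.82% passed). The former was lost when 1 of 5 WKY rats was left out (10 wk rat 4, 12 wk rats 1 and 3, 16 wk rat 1, 24 wk rat 3), with log2 values of -0.49 to -0.46. Without the rat as a block neither passed (adjusted p = 0.299 and 0.111).

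**Figure D4:**
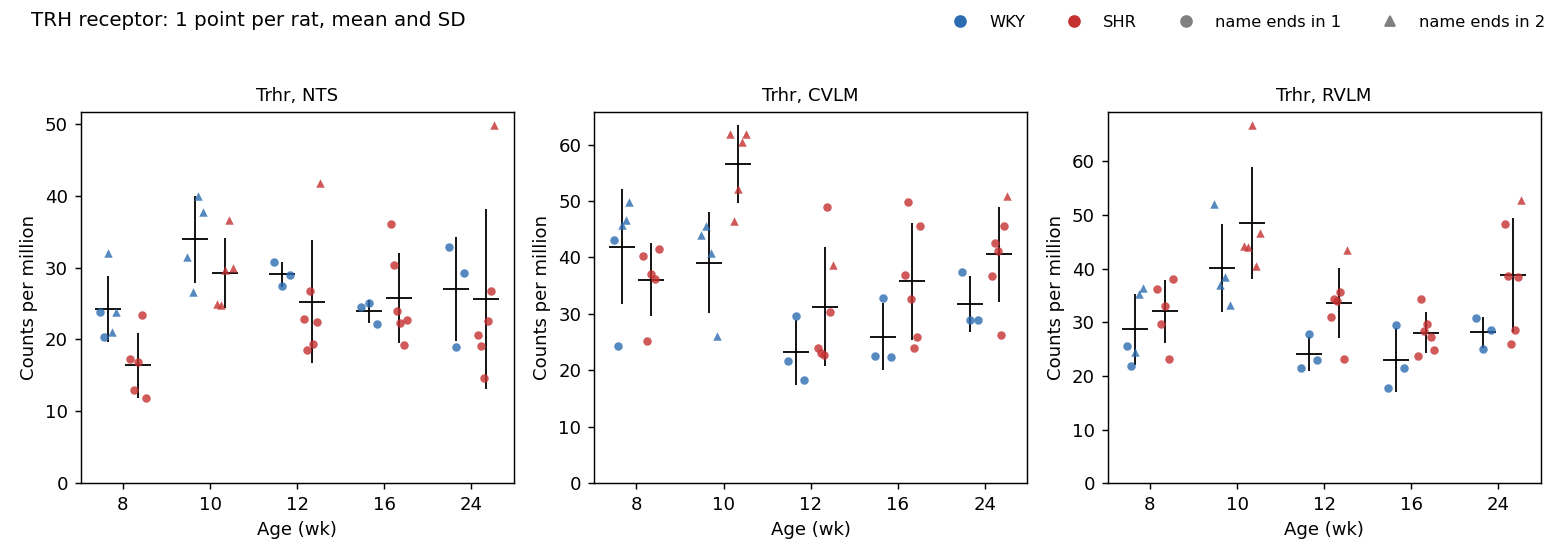
Trhr in the NTS, CVLM and RVLM, in CPM (vertical axes), by age in wk and strain, with 1 point per rat and a black cross for the mean ± SD. Triangles are libraries whose names end in 2, which include all those of 10 wk and the highest SHR library at 24 wk in each region, at 49.8, 50.9 and 52.9 CPM.

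Trh, the peptide gene, passed the strain test in no region, and its CVLM level was set by a few libraries. At 10 wk WKY rats had 2.15, 5.47, 6.31 and 245 CPM in the CVLM and SHRs 10.7, 15.5, 5.97, 11.9 and 0.305. Rat 4 of the WKY group, with 3958 counts, lay far above every other library. At 12 wk WKY rats had 0.501, 0.404 and 9.24 CPM and SHRs 7.14 to 54.1 with a median of 12.2. At 8 wk WKY rats had 5.03, 8.32, 3.88, 1.3 and 6.49 CPM and SHRs 0.379, 15.8, 3.67, 4.91 and 6.27, with overlap at each of these ages. The difference over the ages was -0.23 ± 0.51 (log2, SE, adjusted p = 0.865), and without that WKY rat it became 0.53 (adjusted p = 0.554). Its averages in the NTS were 5.67 CPM in SHRs and 6.79 in WKY rats (log2 -0.29 ± 0.20 SE, adjusted p = 0.452). In the RVLM they were 1.31 and 2.17 CPM (log2 -0.16 ± 0.53 SE, adjusted p = 0.903), and without the same rat the log2 value became 0.52 (adjusted p = 0.591).

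Trh in the CVLM had its highest r with 2 markers of serotonergic neurons. Slc6a4, the serotonin transporter, and Tph2, the enzyme of serotonin synthesis in neurons, were the nearest of 13407 genes, with r of 0.75 each over the 46 CVLM libraries. The WKY library with 245 CPM of Trh held 28.1 CPM of Slc6a4 and 114 CPM of Tph2, where the WKY medians were 0.286 and 5.08 CPM. In SHRs Slc6a4 had a median of 0.248 CPM and a maximum of 2.12. The r without that WKY library was not computed, so a link over the other libraries is not shown. The summed level of the 4 serotonergic markers ran from 3.21 to 144 CPM in WKY rats and from 2.84 to 18.1 in SHRs. Of the 2 tested in the CVLM neither passed (adjusted p = 0.465 for Slc6a4 and 0.477 for Tph2). Crh was the gene ranked next after these, at 0.63. The inferior olive marker Htr5b, ranked after Crh, reached 0.59 with Trh and 0.61 with Crh.

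Crhbp in the RVLM moved with Penk, Pnmt and Slc30a3, with r of 0.91, 0.90 and 0.90. Pnmt, which makes adrenaline, marks the C1 neurons of this region, and Penk encodes the enkephalin precursor. Pnmt ran from 0.783 to 52.1 CPM in WKY rats and from 2.68 to 66.1 in SHRs in the RVLM, and Crhbp from 1.29 to 92.7 and from 2.21 to 68.2. WKY rat 5 at 8 wk had the lowest value of both. Of 5 catecholaminergic markers tested in the RVLM none passed, and the summed level of all 7 measured ran from 24.2 to 184 CPM in WKY rats and from 53.0 to 318 in SHRs. The median log2 fold change of the 5 was 0.57, against 0.0088 over all genes. In the CVLM, where Crhbp was lower in SHRs, the averages of Pnmt were 40.7 CPM in SHRs and 42.9 in WKY rats (log2 -0.11 ± 0.14 SE, adjusted p = 0.731). The r of Crhbp with Pnmt is given for the RVLM only. The part of catecholaminergic neurons in the Crhbp difference of the CVLM was not tested.

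**Figure D5:**
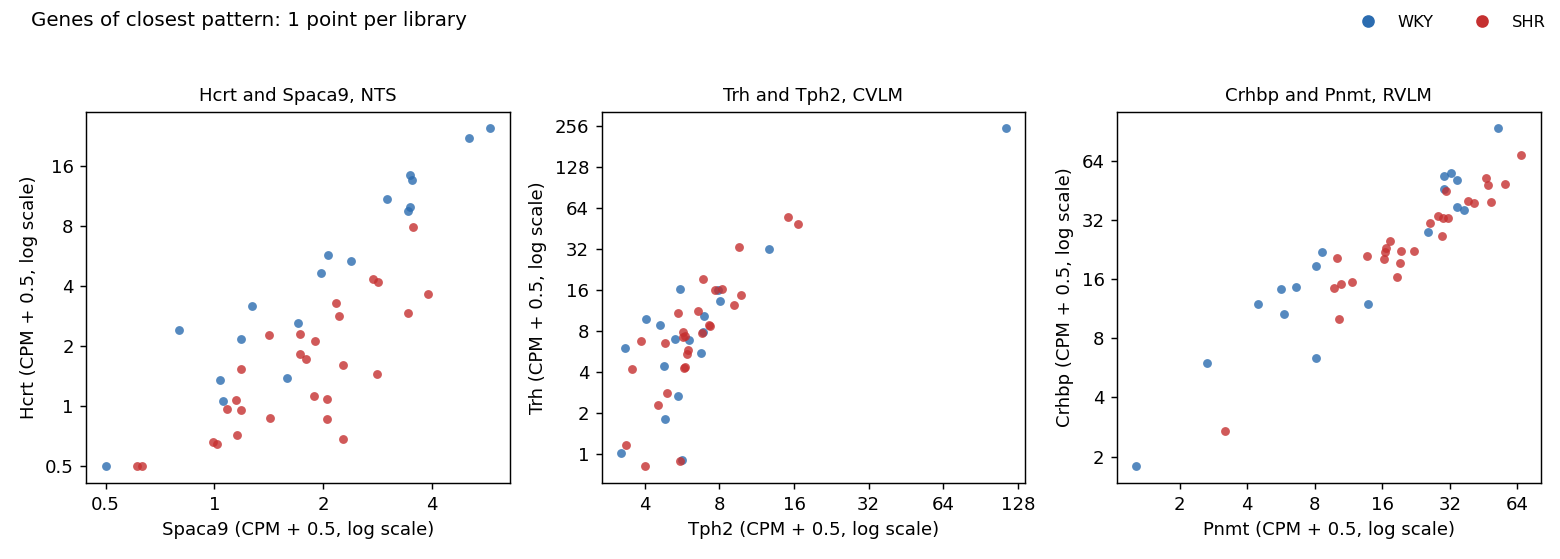
Hcrt against Spaca9 in the NTS, Trh against Tph2 in the CVLM and Crhbp against Pnmt in the RVLM, as CPM + 0.5 on log2-spaced axes, with 1 point per library (46 in each panel) coloured by strain. The pairs rise together, with r of 0.86, 0.75 and 0.90 within groups, and the WKY library at 245 CPM of Trh lies at the far upper right of the middle panel.

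The nearest genes of the other members had r of at most 0.82. Hcrtr1 in the NTS stood nearest Nipsnap1, Hsf4 and Tubb3 (r of 0.71, 0.69 and 0.69), and Hcrtr2 in the RVLM nearest Kif3a, Gabra2 and Siae (0.80, 0.76 and 0.74). For Crh in the CVLM, Trh and Rspo3 were among the nearest (0.63 and 0.61), and for Crhr1 in the CVLM the nearest were Epn3, Acss2 and Galnt14 (0.82, 0.78 and 0.77). Crhr2 in the NTS stood nearest Chrnb4, Chst1 and Gas7 (0.72, 0.70 and 0.70), and Gfral, a marker of the adjoining area postrema, was ranked 18th at 0.64. Trhr in the CVLM stood nearest Necab1, Cdh9 and Tmx1 (0.77, 0.77 and 0.76). Each r is a description over 46 libraries.

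The age comparison asked whether a gene varied over the 5 ages within a strain. Of 48 such tests 9 passed (F test on 4 degrees of freedom, adjusted p under 0.05), against 15.7% of all genes tested (WKY rats 12.5%, 22.2% and 6.79% and SHRs 18.7%, 20% and 14.1% in the NTS, CVLM and RVLM). In SHRs these were Hcrtr1 in the NTS and CVLM (adjusted p = 0.0396 in both), Crhbp in the CVLM (0.0463), and Trhr in the CVLM (0.0113) and RVLM (0.0128). In WKY rats they were Crhr1 (0.0117), Trh (0.0262) and Trhr (0.0230) in the CVLM, and Trhr in the RVLM (0.0491). The call of Trh was lost without WKY rat 4 of 10 wk, the library at 245 CPM (adjusted p = 0.286), and that of Trhr in the RVLM of WKY rats in 22 of the 28 fits without 1 rat (adjusted p up to 0.172). Of the other calls Crhbp was lost in 13 such fits, Hcrtr1 in 7 in the CVLM and 4 in the NTS, and Trhr in 1 each for WKY rats in the CVLM and SHRs in the RVLM. In SHRs Hcrtr1 was lowest by group mean at 10 wk in both regions, at 8.73 CPM in the NTS and 6.39 in the CVLM, and Trhr was highest then, at 56.6 CPM in the CVLM and 48.5 in the RVLM.

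These are the libraries named with a 2. At other ages Trhr was likewise higher in such libraries in each of the 9 comparisons of means within a group and region: at 12 wk SHR rat 6 had 41.7 CPM in the NTS, where the other SHRs lay between 18.6 and 26.7. At 24 wk SHR rat 6 had 49.8 CPM there and the other SHRs 14.6 to 26.8. None of the 9 age calls remained with the number as a term, and none passed when the libraries of number 1 alone were tested over 8, 12, 16 and 24 wk. Age and library number cannot be told apart for the 10 wk values. The strain difference was not shown to change with age in any of 24 tests by edgeR or by DESeq2. By edgeR, 0.0148% of all genes passed (NTS 0.0145%, CVLM 0.0224%, RVLM 0.00746%). Among the 24 tests Crhr1 and Trh in the CVLM had an unadjusted p below the threshold. So had 4051 of the 40612 tests over all genes and regions, and 1612 of 13408 in the CVLM.

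Genes of the wider pathway were tested over the ages in the same fits, in which 11.2%, 12.3% and 10.8% of all genes passed in the NTS, CVLM and RVLM. Of 8 genes of peptide precursor processing 7 were tested in each region. Only Pcsk1 in the NTS passed, which encodes a prohormone convertase, at 57.6 CPM in SHRs and 69.2 in WKY rats (log2 -0.27 ± 0.085 SE, adjusted p = 0.0302). Of 5 genes of peptide breakdown, all tested in each region, none passed. Of 25 genes of G proteins and their effectors 23 were tested in each region. In the NTS the adenylyl cyclase gene Adcy6 was higher in SHRs (log2 0.48 ± 0.13 SE, adjusted p = 0.00917) and Adcy5 lower (-0.29 ± 0.088 SE, adjusted p = 0.0215). In the CVLM Adcy6 (0.43 ± 0.10 SE, adjusted p = 0.00231) and the sodium-calcium exchanger gene Slc8a1 (0.44 ± 0.11 SE, adjusted p = 0.00460) were higher and Adcy5 lower (-0.28 ± 0.060 SE, adjusted p = 6.34e-04). In the RVLM none of the 23 passed. The shares of this list in the NTS and CVLM lay near those of all genes. The medians of this list were 0.024, 0.080 and 0.12 in the NTS, CVLM and RVLM (log2), against 0.0097, -0.0030 and 0.0088 over all genes.

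Markers of other cell types were compared between the strains beside these results. They were tested over the ages, where 11.2%, 12.3% and 10.8% of all genes passed in the NTS, CVLM and RVLM. Of 4 neuronal and 4 astrocyte markers none passed in any region. Of 4 oligodendrocyte markers Mog and Mbp were lower in SHRs in the CVLM (log2 -0.24 and -0.14) and Mog in the RVLM (-0.23), and of 4 microglial markers Aif1 was lower in the CVLM (-0.29). Summed neuronal markers ran from 2156 to 4393 CPM in WKY rats and from 2596 to 4825 in SHRs in the RVLM, where Crhr1 and Trhr were higher in SHRs. Of inferior olive markers, Htr5b was higher in SHRs in the NTS (log2 0.73), and Htr5b and Foxp2 were higher and Etv1 lower in the RVLM (log2 0.90, 0.80 and -0.28). In the CVLM Etv1 was lower (-0.32), and the olive list summed to 50.2 to 104 CPM in WKY rats and 54.0 to 86.5 in SHRs. Of smooth muscle markers Tagln was higher and Mylk lower in SHRs in every region and Myh11 higher in the RVLM, and of cerebellar markers Cbln3 was higher in the CVLM. No marker of the area postrema or of cholinergic motor neurons passed in any region. The part of these tissues in the Crhr1, Crhbp and Trhr differences was not tested.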

How the data were processed

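Female SHRs and WKY rats gave 46 libraries from each of 3 regions. The authors aligned reads with STAR 2.6.1 to rn6 and deposited expected counts per gene from RSEM 1.3.1, 1 table per region. Batch adjustment is named in the methods, and whether the deposited counts carry it is not given in the sources used here. Expected counts were rounded and scaled by TMM. In each region genes with a largest rlog value of at least 3.5 were tested with edgeR 4.0.16 (quasi-likelihood, R 4.3.3) on groups of strain and age. P-values were adjusted by Benjamini-Hochberg over all genes tested in a contrast, with a threshold of 0.05. Regions were compared in 1 fit with the rat as a block. Within a region the p-values measure the spread between these rats. In the fit over regions they measure the spread of the differences between regions of the same rat. The fits were run on simulated counts with 1 dispersion set for all genes, which does not cover genes that vary as much as Hcrt and Trh. Among repeat checks of 270 pairs of libraries no pair was alike within sampling noise.

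The members and lists were chosen with earlier results of these data known. Named were the 9 members, genes of the pathway lists that passed (up to 3 per region), and the 3 genes of highest r with each member in the region of its highest mean CPM. Of these, 1 is not reported here. Marker genes outside this rule were named after their values were seen. The ependymal list, the library-number subsets and the fits without high-Ttr libraries were chosen after seeing the data. Same-numbered rats of the strains shared no stated origin, and r of their deviations over genes ran from -0.37 to 0.58, with 33 of 54 pairs over 0.1. All pairs were over 0.1 in the NTS at 12 and 24 wk and in the CVLM at 10 and 12 wk, where calls that the block ended are given beside the result. Alternatives were DESeq2 1.42.0, its size factors, no filter, other models, stricter calls and leaving out each of 28 rats in groups of 3 to 5.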

Additional observations from a re-analysis of the deposited data

Results flagged for a closer look

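In 23 of 168 groups of 4 to 6 rats, 13.7%, the highest or lowest library lay farther from its neighbour than Dixon's 95% limit allows. For independent, normally spread values chance gives about 5 in 100. The share over all genes was not computed, so the excess is not shown to be particular to these genes. Of these libraries 10 have names that end in 2, a count not set against the share of such names in the groups checked. Every library of 10 wk has a name that ends in 2, so a far library at that age cannot bear on the number. Whether the number affects how often a library lay far was not tested. Trh gave the most far libraries. In the CVLM it stood out at 245 CPM in WKY rat 4 at 10 wk, 54.1 CPM in SHR rat 6 at 12 wk, 32.5 CPM in SHR rat 4 at 16 wk and 48.6 CPM in SHR rat 4 at 24 wk. In the RVLM it stood out at 0.984 CPM in WKY rat 2 at 8 wk, 3.27 CPM in SHR rat 2 and 7.12 CPM in WKY rat 4 at 10 wk, 6.00 CPM in SHR rat 6 at 12 wk and 5.67 CPM in SHR rat 3 at 24 wk. WKY rat 4 at 10 wk and SHR rat 6 at 12 wk were far above their groups in both regions.

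Trhr was high in the NTS at 41.7 CPM in SHR rat 6 at 12 wk and 49.8 CPM in SHR rat 6 at 24 wk, both of number 2, and in the RVLM at 66.8 CPM in SHR rat 3 at 10 wk. It was low in the CVLM at 24.2 CPM in WKY rat 2 at 8 wk. Crhbp was high in SHR rat 2 at 8 wk in both the CVLM (60.8 CPM) and the RVLM (52.0 CPM), and in the NTS in SHR rat 4 at 24 wk (2.58 CPM). Hcrt in the NTS stood out at 14 CPM in WKY rat 2 and 1.62 CPM in SHR rat 3, both at 8 wk. In the NTS Hcrtr2 was low at 2.52 CPM in SHR rat 5 at 8 wk, and at 10 wk Crh was high at 3.95 CPM in SHR rat 1 and Crhr1 low at 4.39 CPM in SHR rat 3. In the RVLM Crhr2 was high at 3.19 CPM in SHR rat 4 at 8 wk, and Crh at 5.07 CPM in SHR rat 6 at 16 wk.

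The strain difference itself differed between regions in 3 tests (edgeR, rat as a block). That of Crhr1 was lower in the CVLM than in the RVLM by a log2 value of -0.75, and that of Trhr was lower in the NTS than in the CVLM (-0.51) and the RVLM (-0.52).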

How the results depend on the processing

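Under stricter calls (adjusted p of at most 0.01 and a log2 fold change of at least 1) 1 of the 11 strain values at single ages, 1 of the 7 strain values over the ages, 0 of the 9 age values, 13 of the 24 region values and 0 of the 3 strain differences between regions remained. At single ages 7 values passed when each age was fitted on its own. Of the age values 14 passed with DESeq2, 5 without a filter on low counts, and 0 with the library number as a term or with number-1 libraries only. Without the replicate block of the rat, 1 strain difference between regions passed. With the replicate number as a block within regions, for which not all pairs correlated, 7 values passed at single ages (1 higher, 6 lower) and 8 over the ages. That block ended the calls of Hcrtr1 in the CVLM at 8 and 24 wk (adjusted p = 0.0543 and 0.0980), of Crhr1 in the RVLM at 8 and 24 wk (0.0623 and 0.0603) and of Trhr in the RVLM over the ages (0.102), brought Trhr in the NTS (-0.29, adjusted p = 0.0361) and Crh in the CVLM (-0.64, adjusted p = 0.0285) past the threshold and turned the signs of Trh (0.11) and Crhbp (0.14) in the RVLM. Hcrtr2 in the RVLM became 0.0010 with the number term and Crhbp in the RVLM 0.00045 in the additive model. Leaving out 1 rat gave 7 to 13 calls at single ages (7 without WKY rat 1 at 24 wk), 5 to 9 over the ages, 5 to 12 for age (5 without SHR rat 3 or 5 at 10 wk), 0 for change with age, 23 to 25 between regions and 2 to 4 for strain between regions. In the fits over regions these kept the dispersion trend and p cut-off of the full fit. The sign turned within ranges of -0.12 to 0.12 for Crhbp, -0.055 to 0.050 for Hcrtr2 and -0.40 to 0.52 for Trh in the RVLM, -0.11 to 0.014 for Hcrtr2 in the NTS and -0.37 to 0.53 for Trh in the CVLM. The causes were not tested. Over the 9 alternatives to the main model, Hcrt, Hcrtr1 and Crhr1 kept their calls over the ages, with adjusted p of at most 0.0196, and Crhbp with at most 0.0497. Among these, leaving out the libraries of conflicting age labels changed the CVLM fit only. Leaving out the high-Ttr libraries changed the NTS fit only, and in the other regions the main fit stood in. The stricter calls are not among the 9. At 3 counts or fewer per library, Hcrt in the RVLM was below what this depth can compare.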
